A study of Homo sapiens with 4 samples.

Results

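LINC00511 is a long noncoding RNA gene on chromosome 17, and its isoforms were compared between wild-type cells and cells labelled as oxaliplatin resistant. The isoforms are all transcripts that GENCODE release 29 places under the gene name LINC00511. There are 106 of them, all present among the 106179 transcripts of the deposited table. The gene was chosen because earlier results of these data showed one isoform counted in wild type and another in resistant cells. All values for this contrast are therefore descriptions, and no test of it supports them.

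The study sequenced total RNA from HepG2, an established human liver cancer line, in 4 libraries: 2 of wild-type cells and 2 of cells selected for resistance to oxaliplatin, a platinum drug that binds DNA. The labels name no further genetic change or treatment, and the culture medium was the same for both groups. Neither the drug dose, nor whether the resistant cells were 1 clone, nor whether replicate libraries stem from different cultures is given in the sources used here. SD and p therefore measure the spread between libraries, which may be technical. Library totals ran from 34898860 to 44063444 estimated counts. The table holds noncoding transcripts only: among hepatocyte marker genes with transcripts in it, ALB, the albumin gene, had 8 counts in 1 wild-type library, and AFP, TTR, SERPINA1, FGB and TF were at 0 throughout. These markers therefore give no check of the labelled cell type. Of 7 fibroblast and endothelial marker genes, 5 had counts, and COL1A2 and LUM were at 0 in every library. COL1A1 had 62 and 78 counts in the wild-type pair and 87 and 34 in the resistant pair. COL3A1 had 10 and 11 against 2 and 16, and PECAM1 and VWF had 3 counts in 1 library each. The summed level of the list ran from 109.9 to 159.4 CPM (CPM is the count scaled to library size) in the wild-type pair. In the resistant pair it ran from 77.4 to 85.6 CPM. VIM, the vimentin gene, held most of that sum, and its part in the results below was not tested.

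Long noncoding RNA genes are transcribed and spliced as mRNA genes are, and can make several RNAs from one locus by using different start sites and by including or skipping exons. LINC00511 has been described as a cancer-linked RNA that binds EZH2, the catalytic subunit of Polycomb repressive complex 2 (PRC2). The neighbouring name LINC00673, also known as SLNCR1, has been linked to invasion of melanoma cells and to turnover of the phosphatase PTPN11 in pancreatic cells. GENCODE release 29 joins both loci under one name. Its LINC00511 spans chr17:72290091-72640472 on the minus strand of GRCh38. RefSeq splits that span: it gives LINC00511 at chr17:72598041-72640472 and LINC00673 at chr17:72403322-72592804.

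Few counts of this gene lay in the LINC00511 of RefSeq. ENST00000581549, which GENCODE's own table matches to the RefSeq transcript of LINC00511, had 57 and 0 counts in the wild-type pair and 38 and 0 in the resistant pair. The 14 isoforms that start upstream of LINC00673 had 94 and 168 counts together in the wild-type pair and 120 and 259 in the resistant pair, which is 0.374% to 1.17% of the gene sum. Both leading isoforms, ENST00000650131 in wild type and ENST00000648623 in resistant cells, are matched to RefSeq transcripts of LINC00673. Of the other counted isoforms, ENST00000649350 alone is also matched to LINC00673, and the rest apart from ENST00000581549 match no RefSeq transcript there.

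The 2 leading isoforms differ in 2 stretches only, which are shown because the difference between the groups rests on them. ENST00000650131 has 4 exons and 2257 bases. ENST00000648623 has 5 exons and 2410 bases, and 2145 bases are common to both. ENST00000650131 starts 112 bases further upstream, at chr17:72592693-72592804. ENST00000648623 has an additional cassette exon of 265 bases at chr17:72420700-72420964, between exon 3 and the last exon. The sequences below are read 5′ to 3′ from the GENCODE release 29 transcripts on GRCh38 (minus strand). Capitals mark the 112 bases that ENST00000650131 has and ENST00000648623 lacks, and the cassette exon of ENST00000648623. They also mark the start of the last exon where ENST00000650131 joins it to exon 3. Each has 15 flanking bases in lower case.
First exon extension of ENST00000650131: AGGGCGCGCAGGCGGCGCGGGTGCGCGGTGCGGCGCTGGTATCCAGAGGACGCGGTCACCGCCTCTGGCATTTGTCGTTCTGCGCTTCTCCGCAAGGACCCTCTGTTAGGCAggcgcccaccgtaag
Junction of exon 3 and last exon in ENST00000650131: aaggacaagaaagagGATGGGAAGGACTGA
Cassette exon of ENST00000648623: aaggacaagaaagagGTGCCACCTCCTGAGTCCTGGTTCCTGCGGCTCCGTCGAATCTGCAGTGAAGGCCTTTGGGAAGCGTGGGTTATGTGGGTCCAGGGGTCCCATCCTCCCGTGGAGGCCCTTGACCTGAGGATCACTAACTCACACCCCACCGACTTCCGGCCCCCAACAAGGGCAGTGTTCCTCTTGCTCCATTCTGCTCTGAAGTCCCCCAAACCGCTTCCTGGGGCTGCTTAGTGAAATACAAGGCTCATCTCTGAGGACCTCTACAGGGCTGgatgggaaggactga
The extension is 68.8% G and C and the cassette exon 59.2%, against 52.2% for either isoform as a whole. Neither isoform has a base or a splice junction that no other LINC00511 isoform holds: the extension lies in 6 isoforms and the cassette exon in 19. Only the combination of parts sets each leading isoform apart.

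**Figure D1:**
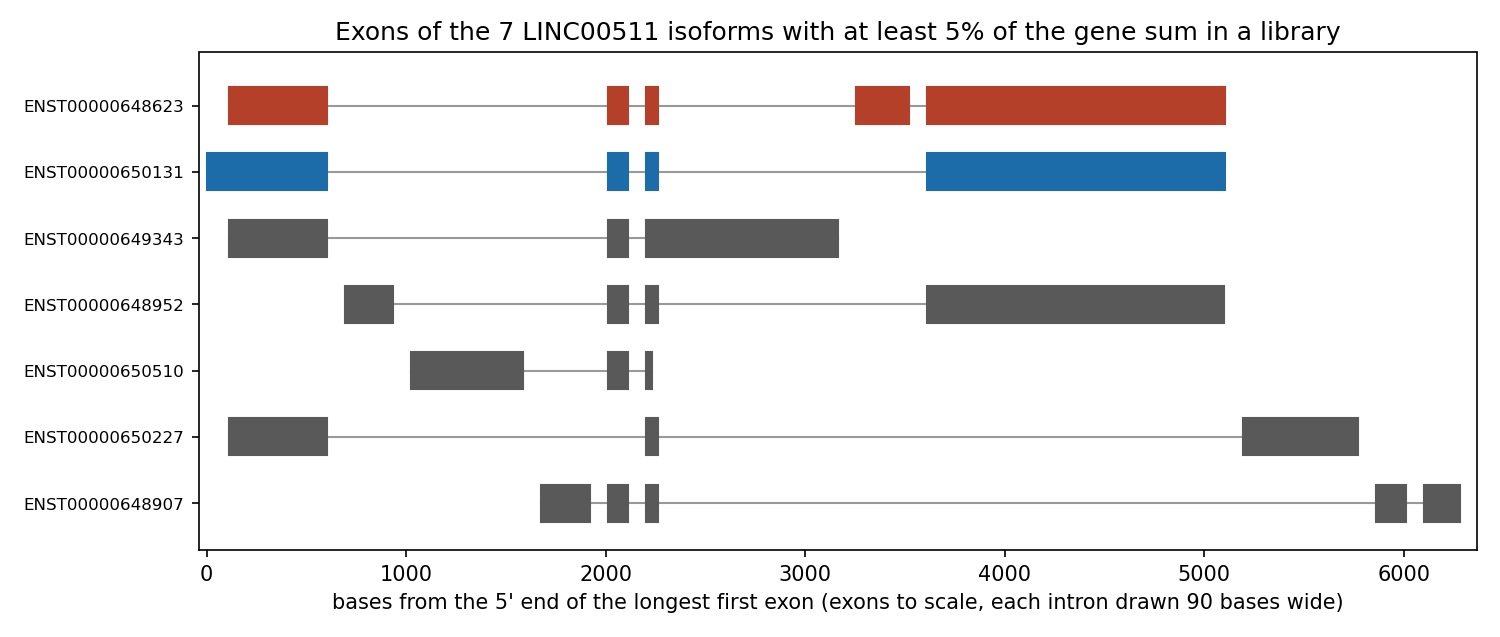
Exons of the 7 isoforms that took at least 5% of the gene sum in any library, drawn from the 5′ end, with exons to scale and introns shortened to a fixed width (x axis, bases). ENST00000650131 (blue) and ENST00000648623 (red) differ by the longer first exon of the former and the 265-base cassette exon of the latter.

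ENST00000650131 had 12708 counts in wild-type replicate 1, 11254 in wild-type replicate 2 and 0 in both resistant libraries. It was the leading isoform of both wild-type libraries, and the groups did not overlap. Its share of the gene sum was 65.8% and 78.2% in wild type, a mean of 72.0% ± 8.76 (SD, n = 2). On the CPM scale its level was 346.6 ± 8.53 in wild type (SD, n = 2). A count of 0 allows 3 counts per library. The wild-type mean was at least 5162-fold above the mean of that limit in resistant cells.

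ENST00000648623 had 0 counts in both wild-type libraries, 21180 in resistant replicate 1 and 30773 in resistant replicate 2. It led both resistant libraries, with 66.0% and 72.3% of the gene sum, a mean of 69.2% ± 4.45 (SD, n = 2). With counts divided by transcript length, its share was 41.0% and 48.1%, and that of ENST00000650131 in wild type was 51.2% and 50.4%. The CPM level of ENST00000648623 was 583 ± 167 in resistant cells. That mean was at least 6704-fold above the mean of the same limit in wild type, and the bound does not hold for each library. The share of the leading isoform overlapped between the groups, while the isoform that led was a different one. These bounds cover counting error only, and the 95% Wilson intervals of the shares of named isoforms in a library had a half-width of at most 0.674 percentage points. A 0 in wild type allows a share of up to 0.0155% and 0.0209% for ENST00000648623, and a 0 in resistant cells up to 0.00936% and 0.00705% for ENST00000650131. Counts here are estimates that divide reads among overlapping transcripts, so a 0 shows where reads were assigned and not that the RNA was absent.

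**Figure D2:**
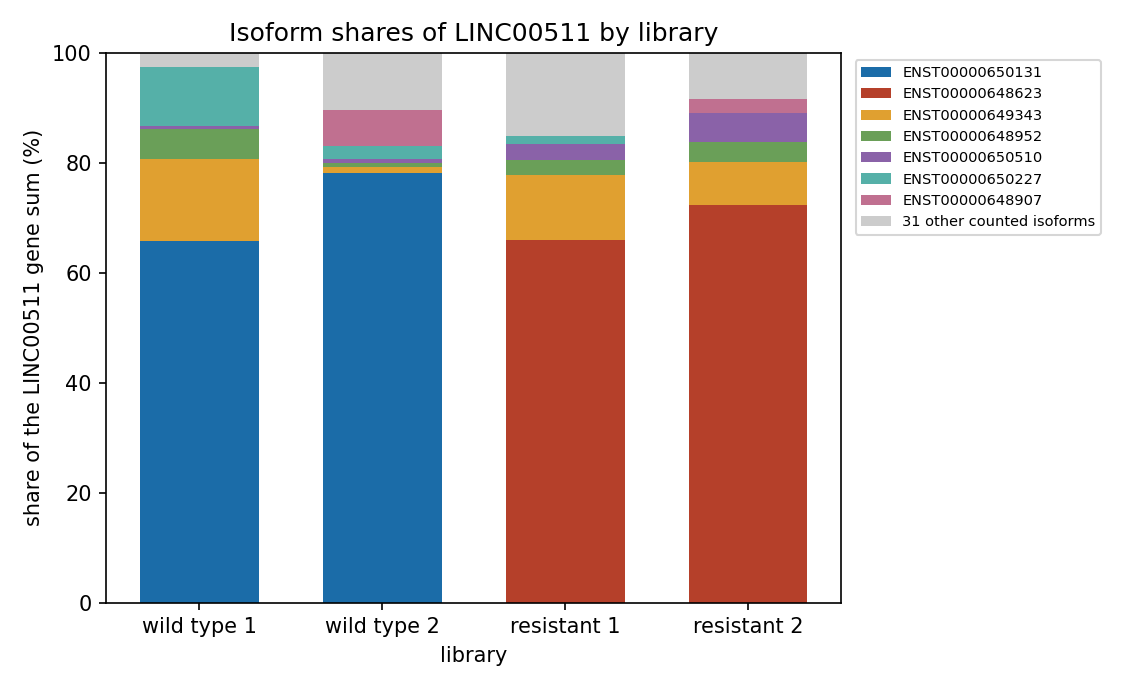
Share of the LINC00511 gene sum (y axis, %) taken by each isoform in each of the 4 libraries (x axis), with the 31 counted isoforms under 5% in grey. ENST00000650131 takes 65.8% and 78.2% in wild type, and ENST00000648623 takes 66.0% and 72.3% in resistant cells.

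High counts in one group and 0 in the other were uncommon among abundant transcripts of the table. Each transcript was taken alone here, without regard to other isoforms of its gene. Of 345 transcripts with over 10000 counts in both wild-type libraries, 3 (0.87%) were at 0 in both resistant ones, ENST00000650131 among them. Of 465 with over 10000 counts in both resistant libraries, 3 (0.645%) were at 0 in both wild-type ones, ENST00000648623 among them. LINC00511 was picked for this pattern, so these shares place it and test nothing.

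Summed over all isoforms, LINC00511 had 653 and 529 CPM in the wild-type pair and 853 and 1162 CPM in the resistant pair. Both resistant libraries were above both wild-type ones, as held for 18.1% of all counted transcripts. The share over gene sums was not taken. The means were 591 ± 88.0 and 1008 ± 219 CPM (SD, n = 2), 1.71-fold higher in resistant cells, with a log2 fold change of 0.77 (edgeR quasi-likelihood test over 13735 genes, Benjamini-Hochberg adjusted p = 0.611, the gene having been chosen on this contrast). The test called 0.0% of all genes at an adjusted p under 0.05. Without adjustment, 1191 genes (8.67%) had a p under 0.05, and DESeq2 called 631 (4.59%), LINC00511 not among them (adjusted p = 0.357). The gene sum was thus of the same order in both groups while its leading isoform differed.

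Parts that both leading isoforms hold had like shares in the 4 libraries when counts were summed over every isoform with that part. Each such sum includes the leading isoform itself, at 65.8% and 78.2% in the wild-type pair and 66.0% and 72.3% in the resistant pair. The likeness was therefore in large part set by the choice of parts. The junction from the first exon to exon 2, a 97-base exon at chr17:72431128-72431224, lay in isoforms with 80.8% and 79.3% of the gene sum in the wild-type pair and 82.6% and 80.1% in the resistant pair. Isoforms with exon 2 held 88.3% and 95.5% in the wild-type pair and 95.3% and 95.8% in the resistant pair. The 32 bases common to the short and long forms of exon 3, at chr17:72428267-72428298, lay in isoforms with 96.9% to 99.0% in every library. Isoforms ending in the last exon of LINC00673 held 72.2% and 83.6% in the wild-type pair and 72.7% and 78.9% in the resistant pair, so the groups overlapped.

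The cassette exon and the start separated the groups. Isoforms with the cassette exon held 0.337% and 2.34% of the gene sum in the wild-type pair and 68.9% and 74.5% in the resistant pair, means of 1.34% ± 1.41 and 71.7% ± 3.94 (SD, n = 2). Isoforms with the junction that skips it held 71.8% and 81.2% in the wild-type pair and 3.78% and 4.44% in the resistant pair. In the resistant libraries, 1211 and 1888 counts were thus still assigned to isoforms with the skipping junction other than ENST00000650131. Of these, ENST00000648952 had 867 and 1550. They are counts over whole isoforms, and reads across the junction were not counted. Isoforms that begin at the upstream start of ENST00000650131 held 65.8% and 78.2% in the wild-type pair and 0 and 0.136% in the resistant pair. Isoforms that begin at the start of ENST00000648623, 112 bases further in, held 25.9% and 4.20% in the wild-type pair and 80.1% and 81.0% in the resistant pair. In wild type, 4995 and 604 counts were thus assigned to isoforms annotated with this inner start, without ENST00000648623. Most were of ENST00000649343 (2884 and 160) and ENST00000650227 (2046 and 341). They are counts over whole isoforms and do not show reads at the inner start, which lies within the first exon of ENST00000650131. These sums come from the same estimates as the isoform counts and are not independent of them.

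**Figure D3:**
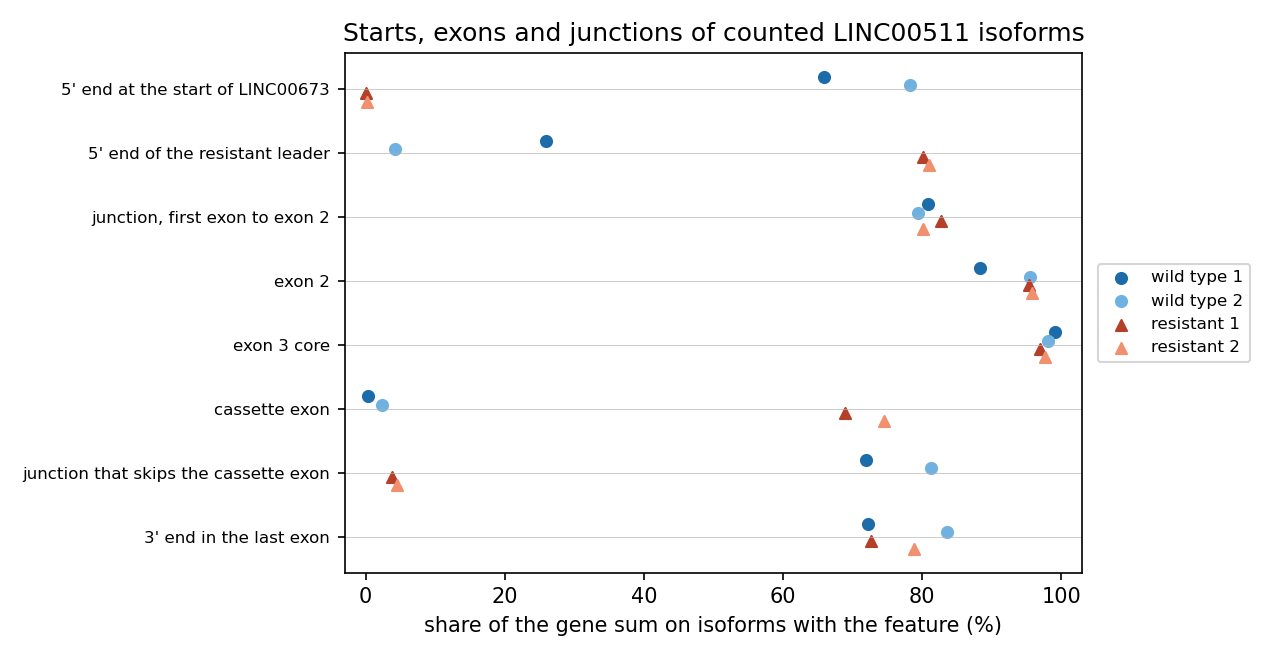
Share of the gene sum (x axis, %) on isoforms that hold a given start, exon, junction or 3′ end (y axis), 1 point per library. Wild type (circles) and resistant (triangles) are far apart for the start, the cassette exon and the skipping junction, and lie between 79.3% and 82.6% for the junction from the first exon to exon 2.

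Of the 106 isoforms, 38 had a count in at least 1 library and 68 were at 0 in all 4. Wild-type libraries had 19 counted isoforms each and resistant ones 25 and 24. Of the 38, 8 were counted in every library and 14 in only 1. All but 2 of the 106 are annotated as lincRNA transcripts, and the other two as retained introns. Few isoforms carried each library: the 3 and 5 highest reached 90% of the gene sum in the wild-type pair, and the 6 and 5 highest did so in the resistant pair.

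The other named isoforms, each with at least 5% of the gene sum in some library, overlapped between the groups on the CPM scale, except for ENST00000650510. On shares of the gene sum, ENST00000650227 did not overlap either. ENST00000649343 begins at the inner start and ends in a long form of exon 3 of 965 bases. It had 2884 and 160 counts in the wild-type pair and 3787 and 3294 in the resistant pair, or 14.9%, 1.11%, 11.8% and 7.74% of the gene sum. Its counts were higher in both resistant libraries, while its CPM and its shares overlapped between the groups. Wild-type replicate 2 stood apart from the other libraries here. ENST00000648952 shares exon 2, exon 3 and the last exon with ENST00000650131 but begins at another first exon, and had 1032 and 92 counts against 867 and 1550. The low library was again wild-type replicate 2, and the groups overlapped.

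ENST00000650227 skips exon 2 and ends beyond LINC00673, in an exon at chr17:72400849-72401421. It had 2046 and 341 counts in the wild-type pair and 478 and 0 in the resistant pair. Its counts overlapped between the groups, with a log2 fold change of -2.67 (edgeR quasi-likelihood adjusted p = 0.969 over all transcripts). That fold change ran from -13.3 to -0.97 when a library was left out. Its shares of the gene sum were 10.6% and 2.37% in the wild-type pair and 1.49% and 0 in the resistant pair. The shares were higher in both wild-type libraries and were not tested. ENST00000648907 ends in 2 exons further downstream in the gene, and was counted in replicate 2 of either group only, with 0 and 944 counts in the wild-type pair and 0 and 1146 in the resistant pair. ENST00000650510 begins at its own first exon of 563 bases and ends in exon 3. It had 126 and 98 counts in the wild-type pair and 896 and 2252 in the resistant pair, and the groups did not overlap. Its share was 0.653% and 0.681% in the wild-type pair and 2.79% and 5.29% in the resistant pair, and its log2 fold change was 3.46 (edgeR quasi-likelihood test, adjusted p = 0.361 over 42393 transcripts).

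**Figure D4:**
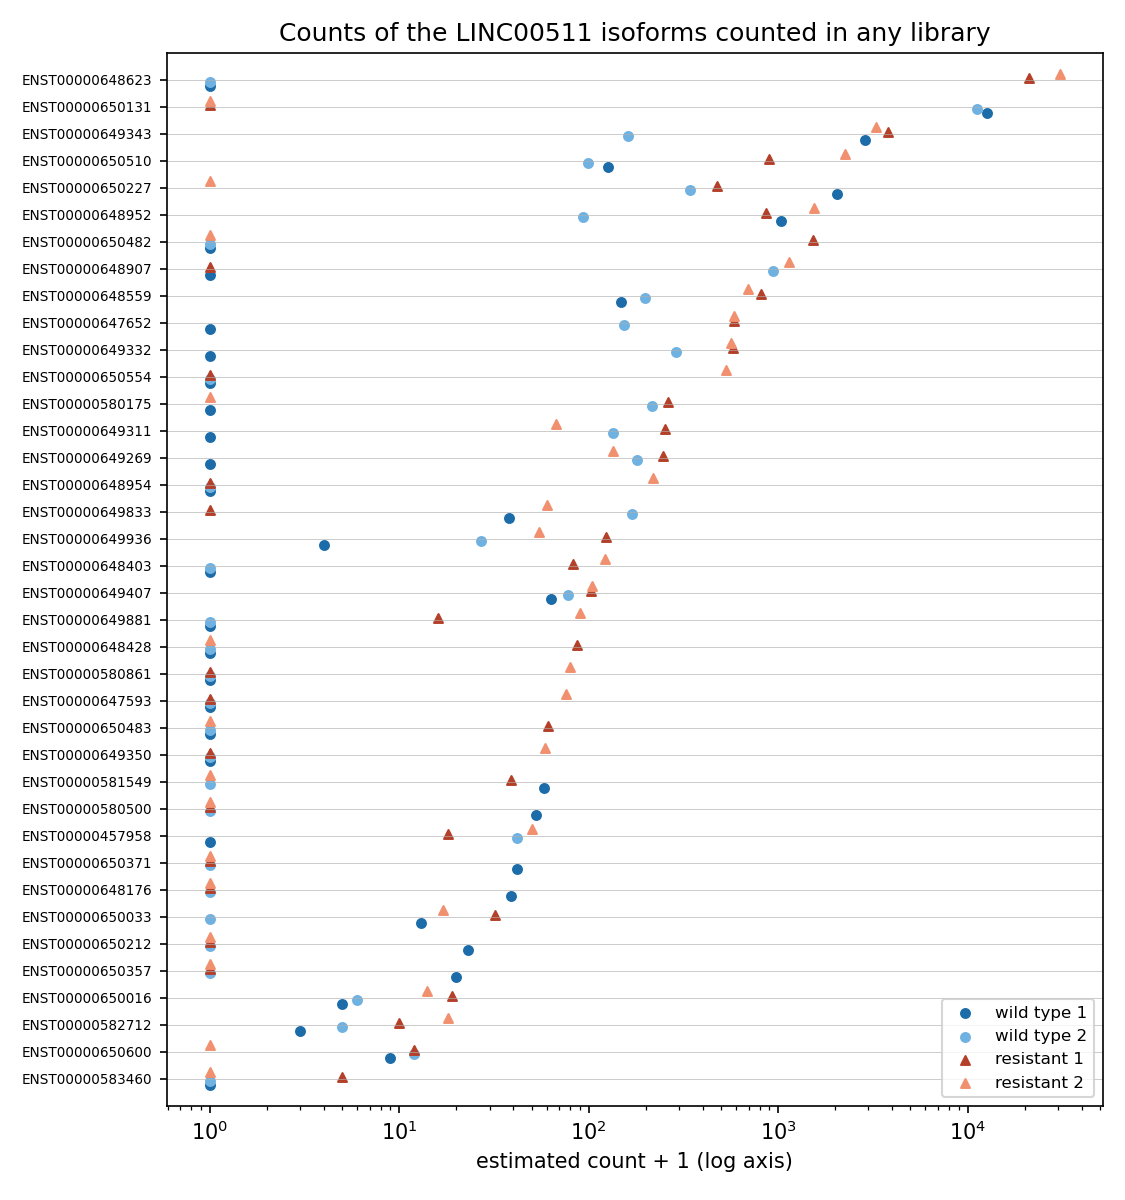
Estimated count + 1 (x axis, log scale) of the 38 isoforms counted in any library (y axis), with 1 point per library. ENST00000650131 and ENST00000648623 stand at the top with over 10000 counts in both libraries of one group and 0 in the other, and most other isoforms show points of both groups mixed or a single library above 0.

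The remaining 31 counted isoforms together took 2.61% and 10.4% of the gene sum in the wild-type pair and 15.2% and 8.28% in the resistant pair. The highest of them, ENST00000650482, had 1532 counts (4.78%) in resistant replicate 1 and 0 in the other 3 libraries. On the CPM scale, 11 of the 38 counted isoforms were higher in both resistant libraries than in both wild-type ones and 1 was lower, ENST00000650131. Among all 56969 counted transcripts, 18.1% were higher and 16.4% were lower without overlap. Counted in both resistant libraries and in neither wild-type one were 3 of the 38 (2.98% of all counted transcripts), and the reverse held for 1 (1.3%). With the gene chosen on this contrast, these counts describe it only.

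Of the isoforms, 23 passed the expression filter of the transcript test and 0 were called (edgeR quasi-likelihood test, Benjamini-Hochberg over 42393 transcripts, smallest adjusted p = 0.329, background 0.0%). Without adjustment, p was under 0.05 for 5 isoforms that were higher in resistant cells and for 1 that was lower, where 4.56% and 3.18% of all tested transcripts were. DESeq2 called 6 of the 23, against 5.33% of all transcripts. These counts rest on the values that chose the gene and support nothing about it.

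To place the exchange among other genes, the isoform distance between 2 libraries was taken as the summed absolute difference of isoform shares divided by 2, from 0 (same shares) to 1 (no isoform in common). For LINC00511 it was 0.280 within the wild-type pair, 0.151 within the resistant pair, and between 0.820 and 0.900 for libraries of different groups. Over the 2807 genes with at least 2 counted transcripts and 1000 counts in each library, the median was 0.132 within wild type and 0.123 within resistant cells. LINC00511 thus varied more than the median gene within either pair, and its distances between groups exceeded both of its within-pair values. The smallest distance between groups less the largest within a group was 0.54 for LINC00511, the 13th highest of 2807, and above 0 for 275 genes (9.8%). With counts divided by transcript length it was 0.354 for LINC00511, the 18th highest. The same isoform led in all 4 libraries for 1722 genes (61.3%). In 91 genes (3.24%), LINC00511 among them, the leader was the same within each pair and differed between groups.

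Only 3 of the 2807 genes (0.107%) had, like LINC00511, an isoform above 20% in both wild-type libraries and at 0 in both resistant ones together with another for which the reverse held. The first of the other two was AL390729.1, a lincRNA gene on chromosome 1, with a difference of distances of 1. Its isoform ENST00000456651 had 2174 and 4571 counts in wild type, and ENST00000422022 had 5721 and 4093 in resistant cells, each with all counts of the gene. The other was GSS, the gene of glutathione synthetase, on chromosome 20, with a difference of 0.50. Its ENST00000645723 had 391 and 348 counts in wild type, a mean share of 29.4%. ENST00000646512 had 3938 and 5168 in resistant cells, a mean share of 72.2%. All isoforms of GSS together had 1394 and 1133 counts in the wild-type pair and 7438 and 5656 in the resistant pair. The largest distance within a pair was 0.405 for GSS. The likeness was measured over 4 libraries.

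**Figure D5:**
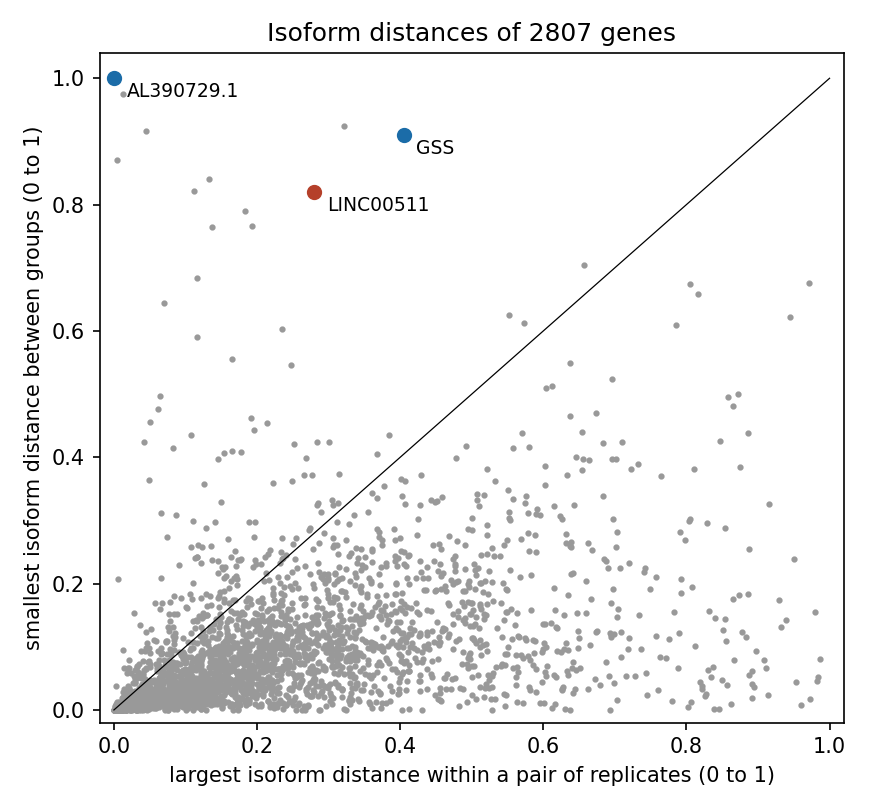
Smallest isoform distance between groups (y axis) against the largest within a replicate pair (x axis) for 2807 genes, with the line of equal values. LINC00511 lies at 0.280 and 0.820, above the line with AL390729.1 and GSS, and most genes lie below it.

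Few genes around LINC00511 were counted. Of 20 genes within 1 Mb that had transcripts in the table, 6 had a count in any library and 4 were tested, with 0 called (edgeR quasi-likelihood test, background 0.0%) and 0 at an unadjusted p under 0.05. Their median log2 fold change was 0.19, against 0.01 for all genes. LINC02003 and AC007639.1, lincRNA genes on the opposite strand inside the LINC00511 span, were at 0 in every library, as was SOX9-AS1, the antisense RNA beside the cartilage and progenitor factor gene SOX9. The span of AC007639.1 overlaps exon 3, and whether counting used the strand is not given in the sources used here. SLC39A11, which encodes a zinc transporter and lies next to the RefSeq start of LINC00511, had 3212 and 5335 counts in the wild-type pair and 3220 and 3087 in the resistant pair through its noncoding transcripts, with a log2 fold change of -0.84 (edgeR adjusted p = 0.675).

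Genes of PRC2, the complex LINC00511 has been described to bind, were represented by noncoding transcripts of 10 genes, of which 9 were tested and 0 called (edgeR quasi-likelihood test, background 0.0%). The 2 at an unadjusted p under 0.05, EZH2 and MTF2, were both higher in resistant cells (background 4.74% in that direction). EZH2 had 20 and 29 counts in the wild-type pair and 826 and 698 in the resistant pair (log2 fold change 4.55, edgeR adjusted p = 0.323). MTF2, an accessory subunit, had 47.2 ± 25.9 CPM in the wild-type pair and 134.9 ± 11.8 CPM in the resistant pair (SD, n = 2, log2 fold change 1.51, edgeR adjusted p = 0.548). These are counts of noncoding transcripts of both genes. The median log2 fold change was 0.55, against 0.01 for all genes. RBBP7, a histone-binding subunit, had 110.1 ± 12.4 CPM in the wild-type pair and 91.7 ± 19.5 CPM in the resistant pair (SD, n = 2). Of 8 tested genes described upstream or downstream of LINC00511, 0 were called and 0 had an unadjusted p under 0.05, with a median log2 fold change of -0.03. CDKN1C, a cell cycle inhibitor gene described as silenced through LINC00511 and EZH2, had 6 and 3 counts in the wild-type pair and 6 and 8 in the resistant pair, too few to compare.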

How the data were processed

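RNA-seq (paired-end, 150-base reads) covered 2 wild-type and 2 resistant libraries. The deposited table holds, judging by its values, estimated counts as whole numbers for each transcript, without normalization. No aligner, counter or annotation is given in the sources used here. For the build, the submitters' processing notes name mm9, a mouse build, whereas 103347 identifiers are human Ensembl transcripts. Names, exons and coordinates come from GENCODE release 29 on GRCh38, which names 84072 transcripts. A further 19275 Ensembl and 2832 assembled identifiers have no name there, and could include more LINC00511 transcripts.

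The isoform table was fitted whole with the edgeR 4.0.16 quasi-likelihood test (R 4.3.3, TMM factors, minimum count 10, Benjamini-Hochberg, threshold 0.05), and again on sums per gene name. The edgeR and DESeq2 fits were tried on simulated counts, and the isoform distance on made-up shares with known distances. The other steps had no such trial. CPM uses the total of the tested features after TMM scaling. Shares are percent of the LINC00511 sum. With 2 libraries against 2 no permutation test can reach the threshold, so none was run. Members and gene lists were chosen with earlier results of these data known. Isoforms at 5% or more of the gene sum in a library are named, and of other genes the up to 5 most alike and the 2 of highest mean CPM over both groups in the PRC2 list (RBBP7 and MTF2), plus EZH2, CDKN1C, SLC39A11 and markers, chosen after their values were seen. One hepatocyte marker of the list is not reported here. Alternatives were DESeq2 1.42.0, other factors, no filter, a replicate block, leaving out libraries and shares per length. Figures used matplotlib 3.10.9.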

Additional observations from a re-analysis of the deposited data

How the results depend on the processing

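With DESeq2 in place of edgeR, calls went from 0 to 2261 transcripts, 631 genes and 6 LINC00511 isoforms, among them ENST00000650131, ENST00000648623 and ENST00000650510. The other edgeR settings (relative log expression factors, no filter, replicate block, each library left out) called 0 transcripts, 0 genes and 0 LINC00511 isoforms, at 1961 to 4435 transcripts and 781 to 1452 genes with an unadjusted p under 0.05. The cause was not tested.

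The log2 fold change of the LINC00511 sum ran from 0.54 to 0.98 when a library was left out, and its adjusted p from 0.357 to 0.865 over all alternatives. Where leaving out a library left 1 in a group, that library was assumed to vary like the others. Divided by transcript length, the difference in share (resistant minus wild type, percentage points) was -50.8 for ENST00000650131 and 44.6 for ENST00000648623, against -72.0 and 69.2. In leave-one-out it ran from -78.2 to -65.8 and from 66.0 to 72.3. The smallest isoform distance between groups less the largest within a group was 0.354 per length and 0.54 to 0.737 in leave-one-out. Leaving out a library only removes pairs, so this value could not fall there, and the range is no check of it.

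The sign changed for named isoforms that vary between replicates. Without wild-type replicate 2, log2 fold changes came to -0.016 for ENST00000649343, -0.076 for ENST00000648952 and 12.09 for ENST00000648907, and without resistant replicate 1 to 0.87 for ENST00000648907. Over the leave-one-out fits they ran up to 4.03 for ENST00000649343 and 3.29 for ENST00000648952, and from -12.09 to 12.09 for ENST00000648907.

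With the replicate number as a block, the LINC00511 sum had a log2 fold change of 0.76 (edgeR adjusted p = 0.836). Deviations of same-numbered libraries correlated at 0.0084 over transcripts and -0.019 over genes, and the numbers were not taken as pairs. Depth limits isoforms of few counts, since a 0 allows up to 3.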

Other observations

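Of the 38 counted LINC00511 isoforms, 14 had counts in a single library. The largest were ENST00000650482, with 1532 counts in resistant replicate 1, and ENST00000650554, with 533 in resistant replicate 2. ENST00000649350, the RefSeq LINC00673 isoform with the upstream start and a longer form of the cassette exon, lacks exon 2. It had 58 counts in resistant replicate 2 and 0 elsewhere. ENST00000649793 and ENST00000647953, which likewise lack exon 2 and are also matched to LINC00673 in RefSeq, were at 0 in all 4 libraries.

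ENST00000647652, of 2 exons and 3700 bases, had 0 and 152 counts in the wild-type pair and 584 in each resistant library. ENST00000648559, a short isoform of 261 bases, had 147 and 197 counts in the wild-type pair and 811 and 694 in the resistant pair, without overlap (edgeR adjusted p = 0.437 over all transcripts).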
